A study of Homo sapiens with 12 samples.

Results

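A set of 9 genes of homologous recombination and the Fanconi anaemia pathway were followed in OVCAR-3 cells, a human line of high-grade serous ovarian carcinoma: BRCA1, BRCA2, RAD54L, BLM, EXO1, EME1, FANCD2, FANCI and BRIP1. They were named by symbol, and every array probe whose single platform gene symbol was one of these names was read. Of the 9 genes, 7 had a probe, with 10 probes in all, and 6 entered the tests among 10873 genes tested. BRCA1, RAD54L, BLM, EXO1, EME1 and FANCI are those 6. BRIP1 was measured but not detected, and BRCA2 and FANCD2 are not analysed here because the platform table used pairs no probe with either symbol.

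The 4 groups each held 3 arrays. The siOct4 cells were transfected with siRNA against Oct4 (POU5F1), a transcription factor of pluripotent cells. The siCcnf+siNipp1 cells received siRNA against Ccnf, the cyclin F gene, together with siRNA against Nipp1 (PPP1R8), a nuclear inhibitor of protein phosphatase 1. The siRb1 cells received siRNA against Rb1, the gene of the retinoblastoma protein, and the control cells received control siRNA. All cells had been exposed to Lipofectamine RNAiMAX, and total RNA was taken 72 hours after transfection. The knockdowns were transient, in bulk cultures of 1 cell line. The labels number the arrays as biological replicates without saying that the cultures were separate, so p-values measure a spread between samples that may be technical.

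Homologous recombination repairs a broken chromosome by copying the sister chromatid, and it therefore works in S and G2 phase. Nucleases and helicases first resect the broken ends, the single strand then invades the homologous sequence, and structure-specific nucleases or the BLM complex separate the joined molecules at the end. The Fanconi pathway deals with crosslinks between the DNA strands: a core complex attaches ubiquitin to FANCI and FANCD2, and the repair then passes to nucleases and to recombination. Many of these genes are transcribed in a cell cycle dependent way, and loss of BRCA1 or BRCA2 is a known cause of ovarian carcinoma.

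Promoter stretches of 4 of the measured genes follow as examples. Each runs 5′ to 3′ on the gene's strand over the 200 bases before the transcription start, from RefSeq (GRCh38.p14). Capitals mark 3 motifs on either strand. GCGGGAA resembles a binding sequence of E2F factors. The letters GGCGGGA overlap with it in GGCGGGAA. The sequence CCAAT is the one that NF-Y binds. The stretches lie at chr17:43125365-43125564 on the minus strand and at chr1:46247488-46247687, chr15:90717146-90717345 and chr1:241848004-241848203 on the plus strand.
BRCA1: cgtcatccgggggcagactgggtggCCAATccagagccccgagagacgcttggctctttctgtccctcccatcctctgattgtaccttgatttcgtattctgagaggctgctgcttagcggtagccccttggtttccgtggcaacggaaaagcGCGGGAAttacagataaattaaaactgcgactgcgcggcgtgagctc
RAD54L: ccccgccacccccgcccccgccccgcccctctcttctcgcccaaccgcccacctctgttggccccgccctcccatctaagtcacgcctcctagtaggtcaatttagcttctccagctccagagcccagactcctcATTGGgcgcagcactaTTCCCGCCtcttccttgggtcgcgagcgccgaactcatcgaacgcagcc
BLM: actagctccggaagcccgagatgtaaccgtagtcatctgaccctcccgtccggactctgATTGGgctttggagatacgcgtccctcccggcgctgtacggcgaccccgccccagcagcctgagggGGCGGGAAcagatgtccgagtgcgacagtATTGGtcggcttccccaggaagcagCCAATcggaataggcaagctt
EXO1: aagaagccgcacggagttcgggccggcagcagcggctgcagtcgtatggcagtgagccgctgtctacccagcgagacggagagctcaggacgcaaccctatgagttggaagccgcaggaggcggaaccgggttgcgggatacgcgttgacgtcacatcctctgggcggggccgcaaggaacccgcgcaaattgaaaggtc
The table used held windows for 8 of the 9 genes (11 windows, from 250 bases before to 50 after a start; no window for FANCI). GCGGGAA stood in a window of 5 of these 8 genes (BRCA1, RAD54L, BLM, FANCD2 and BRIP1), against 6.55% of all 35116 promoter windows. GGCGGGA stood in 6 of the 8, against 15.4% of all windows, and CCAAT in 4 of the 8, against 34.6%. The longer E2F sequences TTTCCCGC, TTTCGCGC, TTTGCCGC and TTTGGCGC were found in EXO1 and FANCD2 (2 of 8, against 3.31% of all windows). The EXO1 match, TTTCGCGC, lies at bases 5 to 12 after the start and thus outside the printed stretch. TTTGAA or TTCGAA, the letters of the cell cycle homology region, stood in BRIP1 (1 of 8, against 16.4%). A gene counted if any of its windows matched, whereas the shares are per window, so the 2 are unlike measures. FANCD2 and BRIP1, counted here, had no tested transcript. BRCA1, RAD54L and EXO1 have more than 1 window. For BRCA1 and EXO1 the one with the most matches is shown; the RAD54L windows hold the same number of matches, and the first in the table is shown. EXO1 is shown as a stretch without a match. The EME1 stretch over the same 200 bases also holds no match and is not shown. A match describes letters in the window and not a bound site.

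Per array, 16186 to 17351 probes had a detection p-value under 0.01, which is 34.2 to 36.7% of all probes. Of the targeted transcripts, 3 were measured, and by the brightest kept probe each was lower in its own knockdown. The brighter POU5F1 probe was undetected on all 3 siOct4 arrays (normalized log2 signal of 5.31 ± 0.495, SD, n = 3, against 10.58 ± 0.099 in control, at least 15.9-fold lower). The dimmer POU5F1 probe was detected on all 3 siOct4 arrays, averaged 7.57 ± 0.239 there and 7.30 ± 0.384 in control (SD, n = 3), and was not called (difference 0.27, interval -0.17 to 0.71, limma adjusted p = 0.329 over all probes kept). CCNF averaged 10.36 ± 0.542 in siCcnf+siNipp1 and 11.91 ± 0.183 in control, 2.93-fold lower, and no probe for PPP1R8 was analysed here. RB1 was undetected on all 3 siRb1 arrays (5.87 ± 0.225, against 7.76 ± 0.394 in control, at least 2.22-fold lower). Targets also moved outside their own knockdown: CCNF was 1.94-fold lower in siOct4, the brighter POU5F1 probe 2.04-fold higher in siCcnf+siNipp1 and RB1 1.53-fold lower in siOct4 (limma, Benjamini-Hochberg adjusted p = 0.0124, 0.00267 and 0.0405), and the brighter POU5F1 probe in siRb1 had a value of 11.38, against 10.58 in control (adjusted p = 0.0524). Of the ovarian carcinoma markers, PAX8, EPCAM, KRT7 and KRT18 were detected on all 12 arrays, MSLN on 9, MUC16 on 4, KRT8 on 3 and WT1 on 0. Of the fibroblast, leukocyte and endothelial markers, COL1A2, DCN, LUM, PTPRC, CD3E and PECAM1 were detected on 0 arrays, CD14 on 1 and COL1A1 on 7, but VWF and CDH5 on 12.

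All 6 measured repair transcripts were lower after siOct4 and after siCcnf+siNipp1, and none was called after siRb1. Against control, 6 of 6 fell in siOct4 cells, where 16.6% of all genes tested were called lower, and 6 of 6 fell in siCcnf+siNipp1 cells, where 19.3% were (limma, adjusted p under 0.05). Being lower in both comparisons, which share the control arrays, was called for 7.68% of all genes. The genes were chosen with earlier results of these data known, so these counts describe them and are no independent test. The median difference of the 6 was -1.40 in siOct4 and -1.32 in siCcnf+siNipp1 on the log2 scale, against -0.01 and 0.00 over all genes tested. In both comparisons the arrays of the knockdown lay below those of control without overlap for 6 of 6, which held for 22.3% of all genes in siOct4 and 25.7% in siCcnf+siNipp1. Each of the 6 differed among the 4 groups by the moderated F test, as did 58.2% of all genes. In bulk RNA, fewer cells in the phase that transcribes a gene and less of its RNA per cell cannot be told apart.

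**Figure D1:**
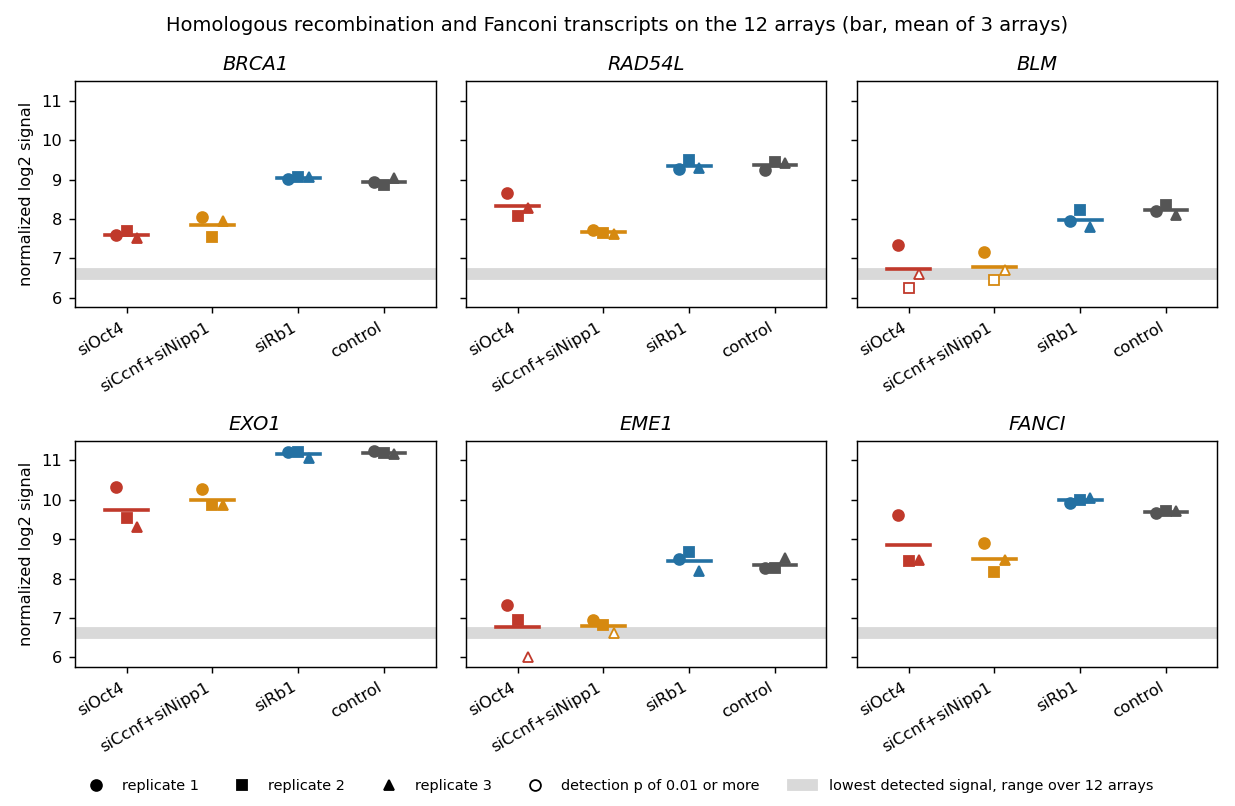
Normalized log2 signal (y axis) of the 6 tested repair transcripts on the 12 arrays, by group (x axis). Points are arrays, with the shape giving the replicate number and open points a detection p-value of 0.01 or more, bars are means of 3 arrays, and the grey band is the range over arrays of the lowest detected signal. Every siOct4 and siCcnf+siNipp1 point lies below every siRb1 and control point of the same gene, and BLM and EME1 reach the band. Levels of different genes come from different probes and are not compared.

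BRCA1 encodes a ubiquitin ligase subunit that promotes resection of broken ends and brings in PALB2 and BRCA2. Its brighter probe read 7.59, 7.70 and 7.53 on the siOct4 arrays and 8.05, 7.54 and 7.96 on the siCcnf+siNipp1 arrays. It read 9.01, 9.06 and 9.07 on the siRb1 arrays and 8.93, 8.87 and 9.03 on the control arrays. The 2 lower groups overlapped each other, as did siRb1 and control, and the pairs stood clear of each other. BRCA1 fell by 2.53-fold in siOct4 (log2 difference -1.34, 95% interval -1.63 to -1.05, SE 0.132, adjusted p = 3.65e-05 by limma) and by 2.13-fold in siCcnf+siNipp1 (-1.09, adjusted p = 0.000115). The group means were 7.60 in siOct4, 7.85 in siCcnf+siNipp1, 9.05 in siRb1 and 8.94 in control. Neither siOct4 and siCcnf+siNipp1 nor siRb1 and control differed beyond the test's threshold.

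EXO1 encodes the exonuclease that carries out long resection, and its brightest probe was detected on all 12 arrays. It read 10.33, 9.55 and 9.32 in siOct4, 10.27, 9.87 and 9.86 in siCcnf+siNipp1, 11.20, 11.22 and 11.07 in siRb1 and 11.24, 11.19 and 11.15 in control. Replicate 1 was the highest array in both lower groups and still lay below all siRb1 and control arrays. EXO1 fell by 2.75-fold in siOct4 (log2 difference -1.46, interval -1.93 to -0.99, adjusted p = 0.000412) and by 2.29-fold in siCcnf+siNipp1 (-1.19, adjusted p = 0.00125). Means ran 9.73 in siOct4, 10.00 in siCcnf+siNipp1, 11.16 in siRb1 and 11.19 in control, again with a gap that passed the test only between the second and the third.

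BLM encodes a RecQ helicase, mutated in Bloom syndrome, that unwinds DNA during resection and later dissolves joined molecules. It read 7.33, 6.24 and 6.61 in siOct4, 7.17, 6.46 and 6.70 in siCcnf+siNipp1, 7.94, 8.22 and 7.80 in siRb1 and 8.21, 8.35 and 8.11 in control. On replicates 2 and 3 of both lower groups it was undetected, so the lower level is only a bound there. For such a bound, each array of the lower group was given its dimmest detected signal wherever the BLM probe lay under it, and the mean of the higher group was set against the mean of those values. BLM was at least 2.55-fold lower in siOct4 and at least 2.6-fold lower in siCcnf+siNipp1 than in control (fitted log2 differences -1.50 and -1.44, adjusted p = 0.000939 and 0.00105). Its means ran 6.73 in siOct4, 6.78 in siCcnf+siNipp1, 7.98 in siRb1 and 8.22 in control, and the neighbours within each pair did not differ beyond the threshold.

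RAD54L encodes a motor protein of strand invasion. It read 8.65, 8.07 and 8.29 in siOct4, 7.73, 7.65 and 7.62 in siCcnf+siNipp1, 9.27, 9.51 and 9.29 in siRb1 and 9.25, 9.44 and 9.41 in control. The siCcnf+siNipp1 arrays were the lowest, with an SD of 0.059, the siOct4 arrays came next without overlapping them, and siRb1 and control overlapped. RAD54L fell by 2.04-fold in siOct4 (log2 difference -1.03, interval -1.34 to -0.72, adjusted p = 0.000303) and by 3.25-fold in siCcnf+siNipp1 (-1.70, interval -2.02 to -1.39, adjusted p = 1.59e-05). The order of its means, 7.67 in siCcnf+siNipp1, 8.34 in siOct4, 9.36 in siRb1 and 9.37 in control, left only the last neighbours without a called difference.

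EME1 encodes the partner of the nuclease MUS81, which cuts joined DNA molecules. It read 7.34, 6.96 and 6.02 in siOct4, 6.95, 6.83 and 6.63 in siCcnf+siNipp1, 8.50, 8.67 and 8.20 in siRb1 and 8.27, 8.26 and 8.53 in control. Replicate 3 was undetected in siOct4 and in siCcnf+siNipp1, the siOct4 arrays had an SD of 0.677, and both lower groups stayed below every siRb1 and control array. EME1 was at least 2.59-fold lower in siOct4 and at least 2.86-fold lower in siCcnf+siNipp1 than in control (fitted log2 differences -1.58 and -1.55, adjusted p = 0.000917 and 0.000931). Its means of 6.77 in siOct4 and 6.80 in siCcnf+siNipp1 did not differ beyond the threshold, nor did 8.45 in siRb1 and 8.36 in control. The MUS81 transcript itself was 1.45-fold higher in siOct4 (adjusted p = 0.00929), and in siCcnf+siNipp1 its mean was 9.72, against 9.62 in control (adjusted p = 0.598).

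FANCI encodes the protein that, bound to FANCD2, is ubiquitinated by the Fanconi core complex at a crosslink. It read 9.62, 8.45 and 8.48 in siOct4, 8.90, 8.16 and 8.47 in siCcnf+siNipp1, 9.93, 9.99 and 10.05 in siRb1 and 9.66, 9.72 and 9.71 in control. Replicate 1 of siOct4 lay just below the lowest control array, and the other siOct4 arrays were far lower, which gave the group an SD of 0.668. FANCI fell by 1.79-fold in siOct4 (log2 difference -0.84, interval -1.44 to -0.25, adjusted p = 0.0317) and by 2.28-fold in siCcnf+siNipp1 (-1.19, interval -1.78 to -0.59, adjusted p = 0.00506). The siOct4 call was the 1 of the 12 calls against control that an alternative ended. Without replicate 1 of siOct4 the difference was -1.23 (adjusted p = 5e-04), without replicate 2 or 3 of siOct4 it was -0.64 or -0.66 and no longer called (adjusted p = 0.125 and 0.119), and leaving out any control array also ended it (adjusted p 0.0644 to 0.0771). The means were 8.85 in siOct4, 8.51 in siCcnf+siNipp1, 9.99 in siRb1 and 9.69 in control, and the neighbours within each pair did not differ beyond the threshold.

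BRIP1 encodes the helicase FANCJ, a partner of BRCA1. Its 1 probe was undetected on all 12 arrays, with signals of 169.4 to 214.8 and detection p-values of 0.08961 to 0.43636, so no difference between groups could be read at this signal over background.

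**Figure D2:**
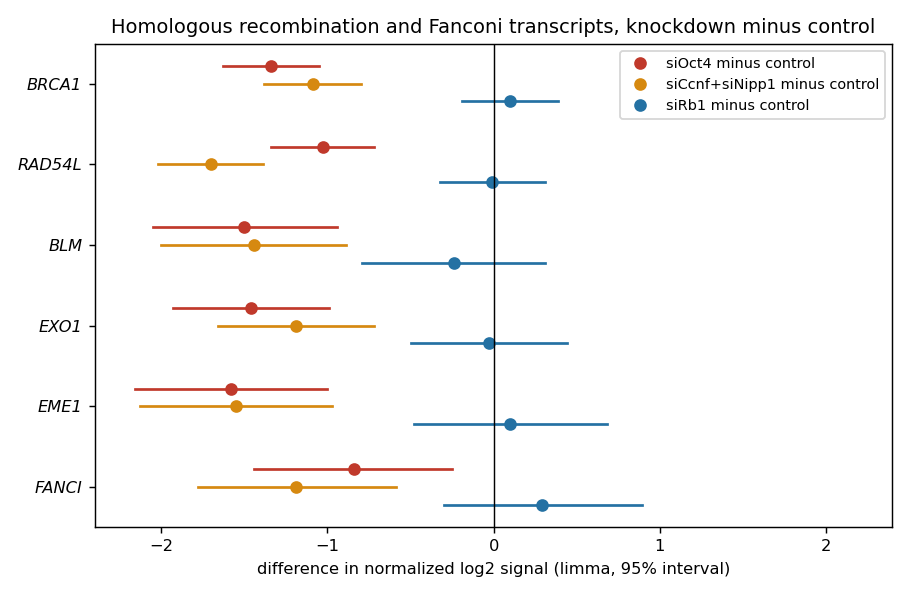
Difference in normalized log2 signal from control (x axis) for the 6 tested repair transcripts (y axis), with 95% intervals from limma, for siOct4, siCcnf+siNipp1 and siRb1. The siOct4 and siCcnf+siNipp1 intervals lie below 0 for all 6 genes, and the siRb1 intervals include 0 for all 6.

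The same 6 transcripts were read in siRb1 cells, where the gene of an E2F repressor was knocked down. None of the 6 was called in either direction, against 4.7% of all genes (511 of 10873, and 1162 with the replicate number as a block), and their median difference was 0.05, against 0.00 over all genes. At an unadjusted limma p under 0.05 the count was also 0 of 6, against 19% of all genes (2063 of 10873). With only 6 genes, a count of 0 cannot be told apart from either of these shares. The intervals bound what was missed: BRCA1 differed by 0.10 (-0.19 to 0.39), RAD54L by -0.01 (-0.32 to 0.31) and BLM by -0.24 (-0.79 to 0.31) on the log2 scale. EXO1 differed by -0.03 (-0.50 to 0.44), EME1 by 0.10 (-0.48 to 0.68) and FANCI by 0.29 (-0.30 to 0.89), with adjusted p between 0.632 and 0.987 over the 6 genes. FANCI was the 1 transcript of the 6 that was higher on all 3 siRb1 arrays than on any control array, as 14.1% of all genes were, and an exact two-sided permutation test gave p = 0.1, the smallest that 3 against 3 allows. Set against siRb1 in place of control, all 6 were again lower in siOct4 (16.8% of all genes) and in siCcnf+siNipp1 (18.4%), with medians of -1.34 and -1.34.

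The 2 knockdowns that lowered the repair transcripts were compared directly. RAD54L was the 1 called difference among the 6, against 35.2% of all genes called in either direction: it was 1.59-fold higher in siOct4 than in siCcnf+siNipp1 (log2 difference 0.67, interval 0.36 to 0.99, adjusted p = 0.00384). All 3 siOct4 arrays lay above all 3 siCcnf+siNipp1 arrays for RAD54L, as for 23% of all genes. BRCA1 differed by -0.25 (-0.54 to 0.04, adjusted p = 0.169), EXO1 by -0.27 (-0.74 to 0.20, adjusted p = 0.36) and FANCI by 0.34 (-0.25 to 0.94, adjusted p = 0.354). BLM and EME1 differed by -0.05 (-0.60 to 0.50) and -0.03 (-0.61 to 0.55), with many of the values under the detection limit. BRCA1 passed the test when its probes were averaged (-0.36, adjusted p = 0.0474) or without replicate 2 of siCcnf+siNipp1 (-0.40, adjusted p = 0.0228), and EXO1 without replicate 1 of siOct4 (-0.57, adjusted p = 0.013).

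**Figure D3:**
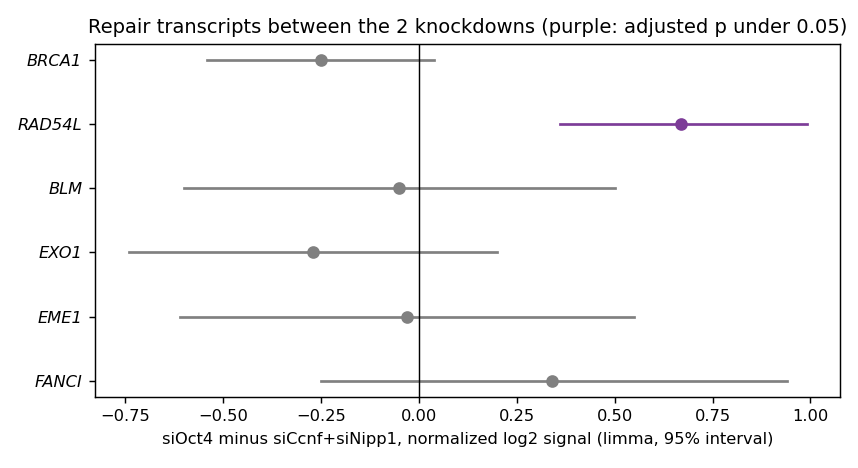
Difference in normalized log2 signal of siOct4 minus siCcnf+siNipp1 (x axis) for the 6 tested repair transcripts (y axis), with 95% intervals from limma and the called gene in purple. The RAD54L interval, 0.36 to 0.99, lies above 0, and the other 5 include 0.

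A second probe of BRCA1 and of EXO1 gave the same calls against control. The second BRCA1 probe read 7.18, 6.43 and 6.39 in siOct4, 7.26, 7.17 and 7.01 in siCcnf+siNipp1, 8.55, 8.64 and 8.28 in siRb1 and 8.24, 8.43 and 8.33 in control. It was undetected on replicates 2 and 3 of siOct4, and its fitted differences were -1.66 in siOct4 (adjusted p = 0.00011 in a fit over probes), -1.19 in siCcnf+siNipp1 (adjusted p = 0.000744) and 0.15 in siRb1 (adjusted p = 0.749). The second EXO1 probe read 8.38, 7.30 and 7.16 in siOct4, 8.20, 7.18 and 7.26 in siCcnf+siNipp1, 9.10, 8.90 and 8.58 in siRb1 and 9.27, 9.04 and 9.24 in control. Replicate 1 was again the highest array of both lower groups, and the differences were -1.57, -1.63 and -0.32 (adjusted p = 0.00331, 0.00242 and 0.677). The third EXO1 probe was detected on 1 array, replicate 1 of siRb1, with signals of 132.9 to 238.3 over the arrays, and entered no test.

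Replicate 1 of the lower groups stood nearer to control than the other arrays. The median over the 6 repair transcripts of the difference from the control mean was -0.88, -1.34 and -1.52 on siOct4 arrays 1 to 3 and -0.98, -1.53 and -1.43 on siCcnf+siNipp1 arrays 1 to 3. It was 0.03, 0.13 and -0.10 on the siRb1 arrays and -0.03, 0.01 and 0.03 on the control arrays. Replicate 1 was above both other arrays for 5 of the 6 transcripts in siOct4, all but BRCA1, and for 6 of 6 in siCcnf+siNipp1. Cell cycle markers were read array by array beside them: 20 G2 and M phase transcripts had medians of -0.74, -1.58 and -1.40 in siOct4 and -1.02, -1.44 and -1.27 in siCcnf+siNipp1. The 18 S phase transcripts had medians of -0.62, -1.08 and -1.05 in siOct4 and -0.69, -1.21 and -1.08 in siCcnf+siNipp1, and 11 housekeeping transcripts lay between -0.22 and 0.04 on all 12 arrays. CCNF, the targeted transcript, read 10.98 on replicate 1 of siCcnf+siNipp1 against 10.00 and 10.09 on the other arrays of that group. In siOct4, where CCNF was not targeted, it read 11.37 on replicate 1 against 10.74 and 10.74 on the other arrays. The brighter POU5F1 probe was undetected on all 3 siOct4 arrays, at 5.88, 5.07 and 4.99 on arrays 1 to 3. The part of cell cycle state in the fall of the repair transcripts was not tested.

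**Figure D4:**
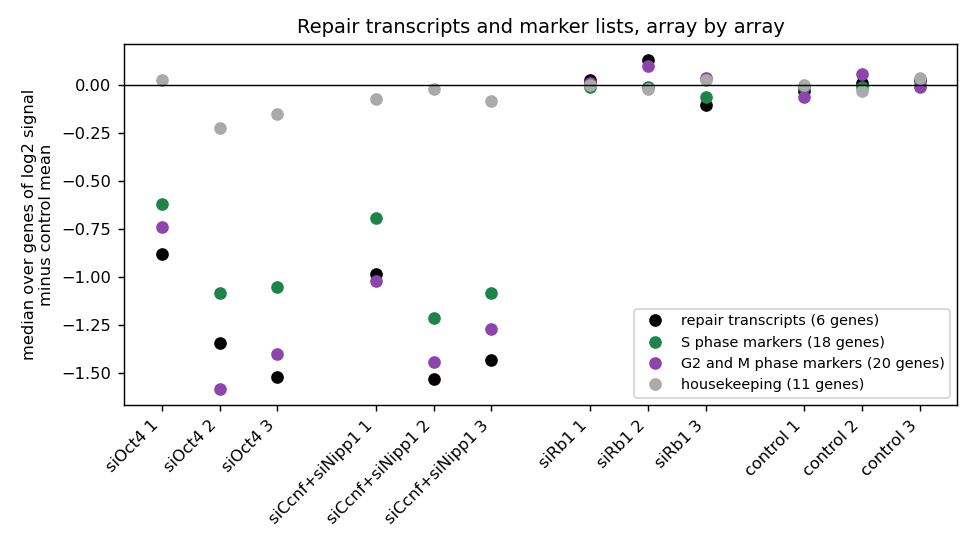
Median difference from the control mean in normalized log2 signal (y axis) on each of the 12 arrays (x axis) for the 6 repair transcripts, 18 S phase markers, 20 G2 and M phase markers and 11 housekeeping genes. On the siOct4 and siCcnf+siNipp1 arrays the repair and cell cycle medians lie between -0.62 and -1.58, with replicate 1 nearest to 0 in both groups, and the housekeeping medians stay between -0.22 and 0.04.

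The marker lists, chosen like the repair lists below with earlier results of these data known, were also counted gene by gene. Of all genes tested, 16.6% were called lower in siOct4 and 19.3% in siCcnf+siNipp1, and 4.7% were called in either direction in siRb1. Of the G2 and M phase markers, 20 of 20 fell in siOct4 and 20 of 20 in siCcnf+siNipp1 (medians -1.28 and -1.28), and 0 of 20 in siRb1. Of the S phase markers, 16 of 18 fell in siOct4 and 17 of 18 in siCcnf+siNipp1 (medians -0.88 and -0.99), and 0 of 18 in siRb1. PCNA, the sliding clamp of replication, was 1.74-fold lower in siOct4 and 1.97-fold lower in siCcnf+siNipp1. Its dimmer kept probe differed by -1.01 in siOct4 and by -0.55 in siCcnf+siNipp1, the latter not called (limma adjusted p = 0.00747 and 0.0971 over all probes kept). MKI67, a proliferation marker, was undetected on all siOct4 arrays and at least 2.32-fold lower there, and at least 2.08-fold lower in siCcnf+siNipp1. E2F1 was not called, with differences of 0.02 in siOct4 and -0.52 in siCcnf+siNipp1 (adjusted p = 0.977 and 0.284), and the CCNE2 probe was detected on 0 arrays. Housekeeping genes were called lower for 2 and higher for 1 of 11 in siOct4, lower for 3 and higher for 1 in siCcnf+siNipp1, and higher for 2 in siRb1. They were thus not free of change in any of the knockdowns.

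Other homologous recombination genes were counted in the same fit. Over all genes tested, 17.6% were called higher in siOct4 and 19% in siCcnf+siNipp1, beside the shares called lower given above. Of 36 tested beyond the genes above, 14 fell and 1 was higher in siOct4 (median -0.28), and 16 fell and 2 were higher in siCcnf+siNipp1 (median -0.37), while 0 were called in siRb1. The largest falls in siOct4 were BARD1, the obligate partner of BRCA1 (log2 difference -1.27, adjusted p = 0.00491), the resection nuclease DNA2 (-1.19, adjusted p = 0.000389) and the strand invasion factor RAD51AP1 (-1.13, adjusted p = 0.00177). In siCcnf+siNipp1 they were RAD51AP1 (-1.64, adjusted p = 0.000166), the recombination regulator PARPBP (-1.27, adjusted p = 0.000537) and the recombination mediator RAD51C (-1.09, adjusted p = 0.000181). BARD1 was 1.79-fold lower in siCcnf+siNipp1 (adjusted p = 0.0351), a call lost in 6 of 22 alternatives, and SWI5 (0.45) and BABAM1 (0.29) were the higher genes there (adjusted p = 0.0414 and 0.0316, lost in 10 and 9 of 22). PALB2, which joins BRCA1 to BRCA2, was not called (-0.27 in siOct4, -0.04 in siCcnf+siNipp1, adjusted p = 0.18 and 0.844). Without control replicate 1 the count of 16 fell to 10.

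Of 21 Fanconi pathway genes tested beyond FANCI, 6 fell and 2 were higher in siOct4 (median -0.35), 9 fell and 2 were higher in siCcnf+siNipp1 (median -0.30), and 0 were called in siRb1. Of the core complex, FANCB was at least 2.56-fold lower in siOct4 (detected on 1 of 3 arrays) and 2.46-fold lower in siCcnf+siNipp1, FANCE 1.64-fold and 1.67-fold lower (the siOct4 call lost in 4 of 22 alternatives), and FANCG 1.41-fold and 2.61-fold lower (adjusted p = 0.0147 and 3.51e-05). UBE2T, the enzyme that carries the ubiquitin for FANCI and FANCD2, was 1.84-fold lower in siOct4 and 2.27-fold lower in siCcnf+siNipp1 (adjusted p = 0.0102 and 0.00175). CENPS, a DNA-binding partner of FANCM, fell by 2.44-fold in siCcnf+siNipp1 (adjusted p = 4.54e-05), and in siOct4 its mean was 9.61, against 9.56 in control (adjusted p = 0.795). The incision nuclease subunits ERCC4 and ERCC1 were 1.57-fold and 1.39-fold higher in siCcnf+siNipp1 (adjusted p = 0.0286 and 0.00519, lost in 3 of 21 and 2 of 22 alternatives), though the 3 dimmer ERCC1 probes disagreed (differences of 0.66, 0.01 and -0.39, of which 0.66 was called), and the translesion polymerase genes REV3L and REV1 were higher in siOct4 (0.54 and 0.41, adjusted p = 0.0252 and 0.046, lost in 5 and 14 of 22 alternatives). The dimmer REV1 probe differed by 0.25 in siOct4 and was not called (limma adjusted p = 0.279 over all probes kept). The brighter REV1 probe differed by 0.54 in siRb1, also not called (limma adjusted p = 0.0671 over all probes kept). Without siOct4 replicate 2 the count of 6 fell to 3. No probe of FANCA was analysed here.

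In the DNA damage and replication checkpoint list, 8 of 14 fell in siOct4 (median -0.50; 5 without siOct4 replicate 2, siOct4 replicate 3 or control replicate 1) and 8 of 14 in siCcnf+siNipp1 (median -0.63), with 1 higher. The fork protection pair TIPIN and TIMELESS were 2.41-fold and 1.70-fold lower in siOct4 and 1.84-fold and 2.64-fold lower in siCcnf+siNipp1, and CHEK1, the checkpoint kinase, was 1.62-fold and 1.98-fold lower. CLSPN, the adaptor that activates CHEK1, was undetected in both knockdowns and detected on only 2 of the control arrays, so no bound on its fall is given. Its fitted log2 differences were -0.97 in siOct4 and -1.13 in siCcnf+siNipp1 (limma adjusted p = 0.00909 and 0.00353). H2AX, the histone marked at breaks, was 1.66-fold lower in siOct4 and 2.08-fold lower in siCcnf+siNipp1 (adjusted p = 0.0445 and 0.00693). The break-sensing kinase ATM was instead 1.42-fold higher in siCcnf+siNipp1 (adjusted p = 0.019, lost in 4 of 22 alternatives) and had a difference of 0.41 in siOct4 (adjusted p = 0.0534, and 0.0217 with the replicate block), while ATR was detected on 0 arrays. The dimmer kept ATM probe differed by 0.43 in siOct4, which was called, and by 0.36 in siCcnf+siNipp1, which was not (limma adjusted p = 0.0384 and 0.069 over all probes kept).

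End joining, which rejoins ends without a template, had 4 of 14 genes lower and 1 higher in siOct4 (median -0.30) and 6 of 14 lower in siCcnf+siNipp1 (median -0.35). The siCcnf+siNipp1 count was 3 under 8 alternatives (a laxer filter, no filter, or leaving out siCcnf+siNipp1 replicate 2 or 3, siRb1 replicate 3 or any control array), and 10 without siCcnf+siNipp1 replicate 1. POLQ, the polymerase of microhomology-mediated joining, was 2.20-fold and 1.92-fold lower, RIF1, which blocks resection, was 2.16-fold lower in siOct4 with its partner TP53BP1 higher (0.50, adjusted p = 0.014), and PARP1 was 1.73-fold lower in siCcnf+siNipp1. Base excision and mismatch repair had 5 of 16 lower in siOct4 (median -0.08; 2 without siOct4 replicate 2 and 3 without control replicate 1) and 7 of 16 in siCcnf+siNipp1 (median -0.38). The flap nuclease FEN1 and the mismatch sensor MSH6 fell most in siOct4 (-1.08 and -0.90), and the glycosylases NTHL1 and MUTYH in siCcnf+siNipp1 (-1.03 and -0.93). Nucleotide excision repair had 3 of 17 lower and 2 higher in siOct4 (median 0.01) and 1 lower (2 under 7 alternatives, among them without siOct4 replicate 1, siCcnf+siNipp1 replicate 1 or control replicate 3) and 3 higher in siCcnf+siNipp1 (median -0.09). GTF2H1, a subunit of the TFIIH complex, was at least 1.93-fold lower in siOct4 (adjusted p = 0.000611) and 2.02-fold higher in siCcnf+siNipp1 (adjusted p = 0.00139). Its dimmer probe, detected on 0 siOct4, 2 siCcnf+siNipp1 and 1 control array, had differences of -0.71 and 0.81 that were not called (adjusted p = 0.135 and 0.0842 over all probes kept). In siRb1 none of the genes in the 6 repair and checkpoint lists was called, and with the replicate block 1 base excision or mismatch repair gene was lower, with 1 homologous recombination, 2 Fanconi and 2 nucleotide excision repair genes higher. These calls use the brightest probe of each gene. A dimmer MUTYH probe, detected on 3 siRb1 arrays and 1 control array, was called higher in siRb1 (0.76, limma adjusted p = 0.0449 over all probes kept). The brightest MUTYH probe and another dimmer one differed there by 0.33 and 0.16 and were not called. At an unadjusted limma p under 0.05, without the block, siRb1 differed for 4 of 36 homologous recombination, 4 of 21 Fanconi, 1 of 14 checkpoint, 2 of 14 end joining, 3 of 16 base excision and mismatch repair and 3 of 17 nucleotide excision repair genes, and for 0 of 18 S phase and 0 of 20 G2 and M phase markers, against 19% of all genes.

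**Figure D5:**
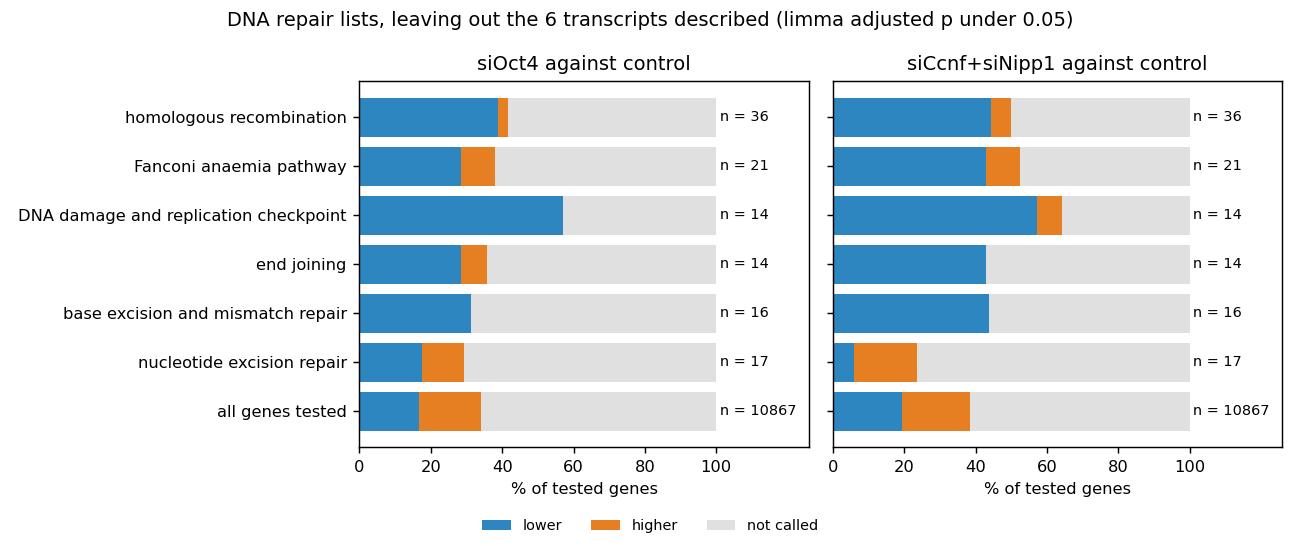
Percent of tested genes called lower, called higher or not called by limma (x axis) in each DNA repair list (y axis), in siOct4 and in siCcnf+siNipp1 against control, without the 6 repair transcripts described, with the number tested beside each bar. In the fit drawn, checkpoint genes have the largest share of lower calls among the lists, 8 of 14 in both, and nucleotide excision repair genes have 3 of 17 in siOct4 and 1 of 17 in siCcnf+siNipp1. The checkpoint count in siOct4 was 5 of 14 without siOct4 replicate 2, siOct4 replicate 3 or control replicate 1.

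The 6 repair transcripts also followed each other across arrays. Pearson's r between pairs over the 12 arrays, which share the 4 groups, ran between 0.846 for BRCA1 with FANCI and 0.966 for EXO1 with EME1. Among 10867 other genes, those most like the mean of the 6 were CKAP2L (r = 0.995), CDC45 (0.991), CDC20, UBE2C and BORA (0.990 each). CKAP2L, a spindle protein, had differences of -1.57 in siOct4, -1.67 in siCcnf+siNipp1 and 0.16 in siRb1, and CDC45, part of the replicative helicase, had -1.33, -1.55 and -0.13. CDC20 and UBE2C, of the ubiquitin system that ends mitosis, had -1.34 and -1.32 in siOct4, -1.29 and -1.56 in siCcnf+siNipp1 and -0.06 and -0.11 in siRb1. BORA, a mitotic kinase activator, had -1.14, -1.11 and 0.01. These likenesses describe the 12 arrays and carry no test.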

How the data were processed

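RNA of OVCAR-3 cells was read on Illumina bead arrays, 3 per group. Per the file headers, the authors deposited for 47322 probes the intensity of the signal on every array, with its detection p-value, and for 47303 probes also a normalized intensity, by a method not given in the sources used here. Arrays were read in GenomeStudio, per the submitters' processing notes, with no version given in the sources used here. The platform table gave 30102 probes exactly 1 gene, 8 several and 17212 none.

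Signals were corrected and quantile-normalized on the log2 scale with neqc (limma 3.58.1 in R 4.3.3; offset 16). A probe was kept where its detection p-value was under 0.01 in 3 or more of the 12 arrays (14441 probes), each gene was read by its brightest kept probe (10873 genes), and all arrays entered 1 limma fit with a mean per group (8 residual degrees of freedom, 3.85 prior). The 6 comparisons were contrasts, two-sided, with Benjamini-Hochberg adjusted p-values over all genes and a threshold of 0.05. The fit was tested on simulated data. Precision is limited by the number of arrays.

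The 9 genes and the gene lists were chosen with earlier results of these data known. The lists were homologous recombination, Fanconi pathway, end joining, checkpoint, nucleotide excision, base excision and mismatch repair, S phase, G2 and M phase and housekeeping genes. The text names the 9 genes, up to 3 called genes per direction and list in siOct4 and siCcnf+siNipp1, 8 preset pathway genes, the targeted genes, 4 cell cycle markers and the 5 genes most alike by Pearson's r.

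Replicate numbers are shared by the groups. Deviations from the group means correlated at 0.107 to 0.419 in all 18 pairs of arrays with the same number and at -0.296 to 0.027 in 36 pairs with different numbers, so the numbers were taken to pair the arrays, and a fit with the replicate block was an alternative. Values, shares and counts come from the fit without this pairing unless an alternative is named. With the block, 12, 16 and 7 of 166 list genes changed their call in siOct4, siCcnf+siNipp1 and siRb1 against control. Other alternatives changed the background correction, normalization, filter, probe choice, array weights, groups in the fit and arrays left out. Those for the lists and for all genes were chosen after seeing the data. Figures were drawn in Python 3.11.15 with matplotlib 3.10.9.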

Additional observations from a re-analysis of the deposited data

How the results depend on the processing

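Directions and calls of the 6 repair transcripts in siOct4 and in siCcnf+siNipp1, against control and against siRb1, held under every alternative run in which the gene was tested, except the FANCI call in siOct4 against control given above, which was also lost with no filter and with only the 2 groups in the fit (adjusted p = 0.0509 and 0.0644). BLM and EME1 left the test when detection on all 12 arrays was asked. The replicate block changed 0 calls of these 6 genes in each of the 6 comparisons, with differences such as -0.84 for FANCI in siOct4 (adjusted p = 0.0194), and gave 4753 called genes of all in siOct4, where the fit without it gave 3717, and 5230 in siCcnf+siNipp1, where it gave 4168. Between siOct4 and siCcnf+siNipp1, the count of called transcripts was 2 with probes averaged and 1 to 2 leaving out an array.

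Differences near 0 turned sign. In siRb1 against control these were RAD54L (0.04, 0.03, 0.03 and 0.01 without siRb1 replicate 1 or 3 or control replicate 2 or 3, range -0.09 to 0.04 leaving out an array), EXO1 (0.02 without siRb1 replicate 3, range -0.06 to 0.02) and EME1 (-0.01 without siRb1 replicate 2, range -0.01 to 0.23). In siOct4 against siCcnf+siNipp1 they were BLM (0.02 with median scaling, 0.19 and 0.01 without siOct4 replicate 2 or 3, 0.15 without siCcnf+siNipp1 replicate 1, range -0.35 to 0.19), EME1 (0.01 without background correction, 0.01 with the authors' values, 0.04 with median scaling, 0.35 without siOct4 replicate 3, 0.04 without siCcnf+siNipp1 replicate 1, range -0.31 to 0.35) and FANCI (-0.04 without siOct4 replicate 1, range -0.04 to 0.55). Against control, E2F1 in siOct4 was -0.01 with array weights and -0.33, -0.12 and -0.16 without siOct4 replicate 3, control replicate 1 or control replicate 2. PALB2 in siCcnf+siNipp1 was 0.08, 0.01 and 0.01 without siCcnf+siNipp1 replicate 3, control replicate 2 or 3 (range -0.20 to 0.08). The cause was not tested.

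The count over all genes in siRb1 was 1035 with array weights and 165 to 556 leaving out an array. Median scaling moved the share of lower calls in siRb1 against control to 60.2% (37% with quantile normalization, with a shift of -0.10 in the median of all genes) and in siOct4 against siRb1 to 38.9% (50.3% with quantile normalization). In siCcnf+siNipp1 against control the share moved to 57.9% (50.4% with quantile normalization), where the median of all genes was -0.05. In siOct4 against control it was 50.4% (48.6% with quantile normalization). A slide block was not run, since the files used name no slides. Signal over background limits BLM, EME1, CLSPN, MKI67 and BRIP1.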
